A study of Mus musculus with 120 samples.

Results

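T cells from the liver lymph nodes of mice on MCDD, a diet deficient in methionine and choline, were compared with T cells from mice on a normal diet (ND). The cells were the wells listed with 1 cell on the capture plates of this sort, whose labels read T ND or T MCDD. They numbered 5320 of the 44840 wells with 1 cell in the series, and lay on 14 of its 118 analysed plates. Both diets were given for 2 weeks to mice of strain c57bl, and the T cells were sorted as CD45+TCRB+. ND and MCDD had 7 plates each, and every plate held 380 wells with 1 cell and 4 empty wells. No age, sex, genotype or transgene is listed for either diet, and both diets share the strain, the tissue, the sort and the time.

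Alpha-beta T cells carry the T cell receptor, whose beta chain (TCRβ) was the sorting marker, together with CD45, which marks leukocytes. Lymph nodes that drain the liver are where naive T cells meet antigen brought by dendritic cells from that organ. Resting T cells are small and hold little RNA, and activated T cells enlarge and hold more. The MCDD diet is a feeding model of steatohepatitis, an inflamed fatty liver. The series asks how dendritic cells take part in liver disease in this model, and the T cell plates stand beside plates of conventional dendritic cells (cDC) and of T-cDC doublets from the same nodes.

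The deposited table used here gave 2 numbers for each well, a total count and a number of genes detected. Counts of single genes were not analysed here. No gene was therefore measured by name, and the T cell label could not be checked against Cd3e, Trbc1 or any other marker. The results describe how much RNA signal each T cell well gave and how many genes it held, not which genes. Less RNA in a cell and less RNA captured from it cannot be told apart in these numbers.

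The plate was the replicate, since wells of 1 plate share their sort, pool and amplification. Nothing in the labels ties a plate to its own animal. The p-values therefore set the difference between diets against differences between plates, which may be technical, and not against differences between animals. Plates are named by diet, label number and sequencing batch, because the labels use ND 6 and MCDD 1 for 2 plates each. Batch SB405 held 4 ND and 3 MCDD plates, batch SB410 held 3 of each, and batch SB399 held 1 MCDD plate and no ND plate. Diets were compared within SB405 and SB410 only, as 7 ND against 6 MCDD plates, by a two-sided exact permutation test of the diet labels within batches (700 relabellings, smallest possible p 0.00143). Summed totals ran from 5596056 to 11212777 per plate. No 2 of the 14 plates had identical totals. All 380 cell barcodes were used on every plate, and the plates differed in their pool barcode, so cells of different plates were told apart by the pool barcode.

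A pair of plates in SB405 stood apart, and the differences between diets below are given with and without them. On MCDD 3, 82 of 380 wells held under 100 genes, and 75 of these lay in odd columns, although odd and even columns held 190 wells each. In the odd columns of rows C to N, 72 of 144 wells were under 100 genes, with a median of 94.5 genes and a median total of 2978.5. The even columns of the same plate had a median of 412.5 genes and a median total of 26877.5, and the odd columns of rows A, B, O and P had a median of 353.5 genes. The low wells of MCDD 3 thus followed plate position. ND 6 of SB405 stood apart at the other end: 70 of its 380 wells (18.4%) held at least 1000 genes, against 0.263% to 3.16% on the other 6 plates of its batch. Its median total, 21237, lay inside the range of that batch (15579.5 to 25606). Its 4 empty wells had a median of 34.5 genes, as those of MCDD 5 of SB405 did, against 5 to 11.5 on the other 5 plates of the batch. Whether ND 6 held only the T cells its label names could not be checked.

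No difference in genes per T cell between the diets passed the test. Plate medians of both diets lay between 310.5 and 568.5 genes per T cell well. In SB405 the median genes per well were 343.5, 396.5, 430.5 and 568.5 on ND 3, 4, 5 and 6, and 341.5, 351.5 and 383 on MCDD 3, 4 and 5. The MCDD plates lay at the lower end of this batch and overlapped the ND plates. In SB410 the medians were 348, 321.5 and 342.5 on ND 1, 2 and 6, and 336.5, 310.5 and 333 on MCDD 1, 2 and 6. Here the diets interleaved. All 6 MCDD plates lay below the ND mean of their batch, and 2 of the 6 lay below every ND plate of their batch. The difference in the median, MCDD minus ND on the log2 scale, was -0.16 ± 0.10 (SE), or 1.12-fold lower on MCDD, with an exact permutation p of 0.131 and an adjusted p of 0.339 over 5 percentiles. It was -0.25 in SB405 and -0.05 in SB410. Without ND 6 of SB405 the difference was -0.08 ± 0.06, and without the pair of plates that stood apart -0.06 ± 0.06, with -0.08 in SB405.

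**Figure D1:**
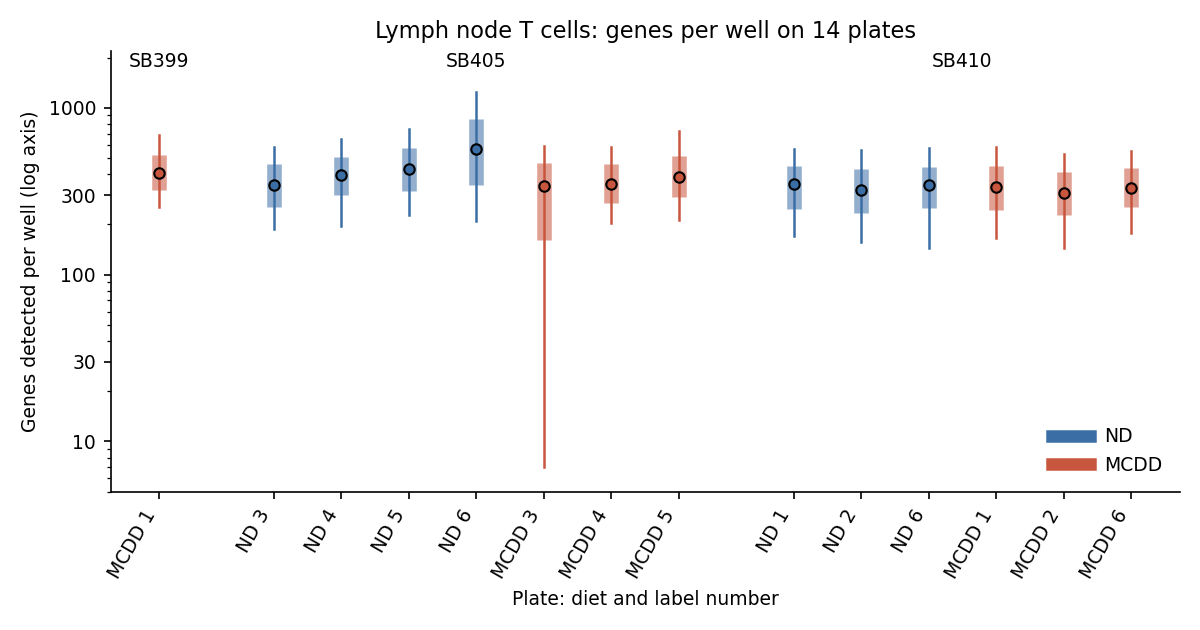
Genes detected per well (log axis) on the 14 lymph node T cell plates, grouped by sequencing batch and coloured by diet. Points are plate medians, thick bars run from the 25th to the 75th percentile of the 380 wells and thin lines from the 10th to the 90th. The medians lie between 310.5 and 568.5, the low tail of MCDD 3 in SB405 reaches 7 genes and the high tail of ND 6 in SB405 reaches 1251.3.

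The wells with few and with many genes were compared in the same way, through the percentiles of genes over the wells of each plate. The 10th percentile describes T cell wells with little signal. In SB405 it was 189, 196.1, 226.7 and 208.5 genes on the ND plates and 7, 202.9 and 213.7 on the MCDD plates. Apart from MCDD 3, the MCDD values lay among the ND values. In SB410 it was 170.8, 156.6 and 144 genes on ND and 165.9, 145.3 and 177 on MCDD, again interleaved. The difference of -0.84 ± 0.75 on the log2 scale (exact permutation p = 0.306, adjusted p = 0.382) was 0.04 ± 0.08 without the pair of plates that stood apart.

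The 90th percentile describes the T cell wells richest in genes. In SB405 it was 582.6, 646.2, 748.2 and 1251.3 genes on ND and 592.1, 586 and 731.2 on MCDD. Only ND 6 exceeded 1000 genes. In SB410 it was 565.1, 557.3 and 573.1 on ND and 579.6, 530 and 549.4 on MCDD, so the diets overlapped. The difference was -0.17 ± 0.17 (exact permutation p = 0.391, adjusted p = 0.391), and -0.02 ± 0.08 without the pair. The differences at the 25th and 75th percentiles were -0.21 ± 0.14 and -0.15 ± 0.13, and -0.03 ± 0.06 and -0.04 ± 0.06 without the pair. Thus in SB405 all 5 percentiles were lower on MCDD, with differences from -1.61 to -0.25, while in SB410 the differences ran from -0.05 to 0.05. Without the pair the SB405 differences were 0.03, -0.05, -0.08, -0.07 and -0.0021 from the 10th to the 90th percentile, about as small as those of SB410.

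**Figure D2:**
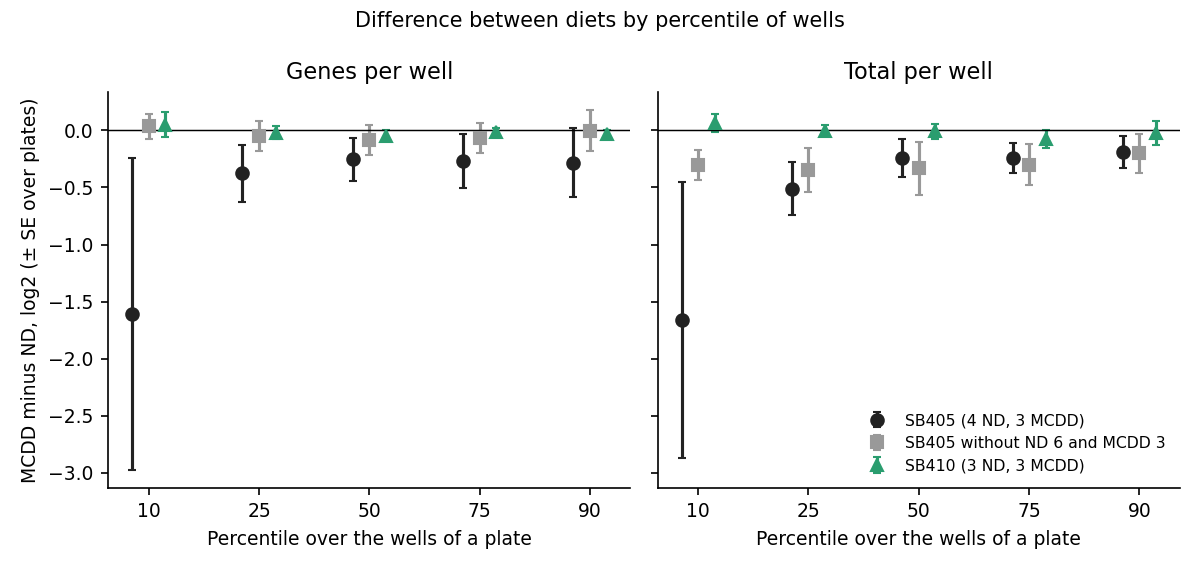
Difference between diets (MCDD minus ND, log2, ± SE over plates) at 5 percentiles of genes (left) and of the total (right) per T cell well. Black circles show SB405 with all 7 plates, grey squares SB405 without ND 6 and MCDD 3, and green triangles SB410. The genes of SB405 differ by -1.61 at the 10th percentile with all plates, and the SB410 values lie near 0.

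The total count per well, which may hold spike-in RNA besides that of the T cell since no header or label says, was also lower on MCDD at every percentile in SB405, and none of the 5 differences passed the test. The median totals in SB405 were 17746, 25606, 22702.5 and 21237 on ND and 20551.5, 19202 and 15579.5 on MCDD. The lowest value was an MCDD plate and the highest an ND plate, and the diets overlapped. In SB410 they were 13765, 13647 and 15375 on ND and 14676, 14151 and 13656 on MCDD, and the diets interleaved. The difference in the median total was -0.13 ± 0.09 (exact permutation p = 0.21, adjusted p = 0.234), and -0.16 ± 0.11 without the pair of plates. At the 10th and 90th percentiles it was -0.87 ± 0.66 and -0.11 ± 0.09, and -0.10 ± 0.07 and -0.10 ± 0.10 without the pair. The smallest p-values were found at the 25th and 75th percentiles, where the totals differed by -0.28 ± 0.13 (exact permutation p = 0.0643) and -0.17 ± 0.08 (exact permutation p = 0.07), both with an adjusted p of 0.167. Without the pair of plates these were -0.16 ± 0.09 and -0.18 ± 0.09, so the difference at the 75th percentile did not shrink. Without the pair the SB405 totals differed by -0.30, -0.35, -0.33, -0.30 and -0.20 from the 10th to the 90th percentile. These SB405 values rest on 3 ND and 2 MCDD plates, with SE of 0.13 to 0.23. The SB410 totals differed by -0.08 to 0.06. Whether the diet difference in the total differs between the batches was not tested.

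Genes detected rise with the total, so T cell wells of similar total were compared next. For each batch a given total was taken from all of its T cell wells, and the median genes were read over wells whose log2 total lay within 0.25 of it. At the middle total of SB405, 20343.5, wells held 363, 360, 405 and 592.5 genes on ND 3, 4, 5 and 6, and 349, 360 and 451 on MCDD 3, 4 and 5. ND 6 held more genes at the same total than any other plate of its batch, and the remaining ND and MCDD plates overlapped. At the middle total of SB410, 14202.5, wells held 353.5, 324 and 322.5 genes on ND and 330, 332 and 342.5 on MCDD. The MCDD plates lay inside the ND range. The difference at matched total was -0.07 ± 0.12 (exact permutation p = 0.674, adjusted p = 0.801) and 0.05 ± 0.07 without the pair of plates. At the 25th and 75th percentile of the total the differences were -0.04 ± 0.12 and -0.03 ± 0.14, and their signs also turned without the pair, to 0.06 ± 0.10 and 0.10 ± 0.10. Each value rests on 36 to 100 wells per plate. No direction could be given for genes at a matched total.

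**Figure D3:**
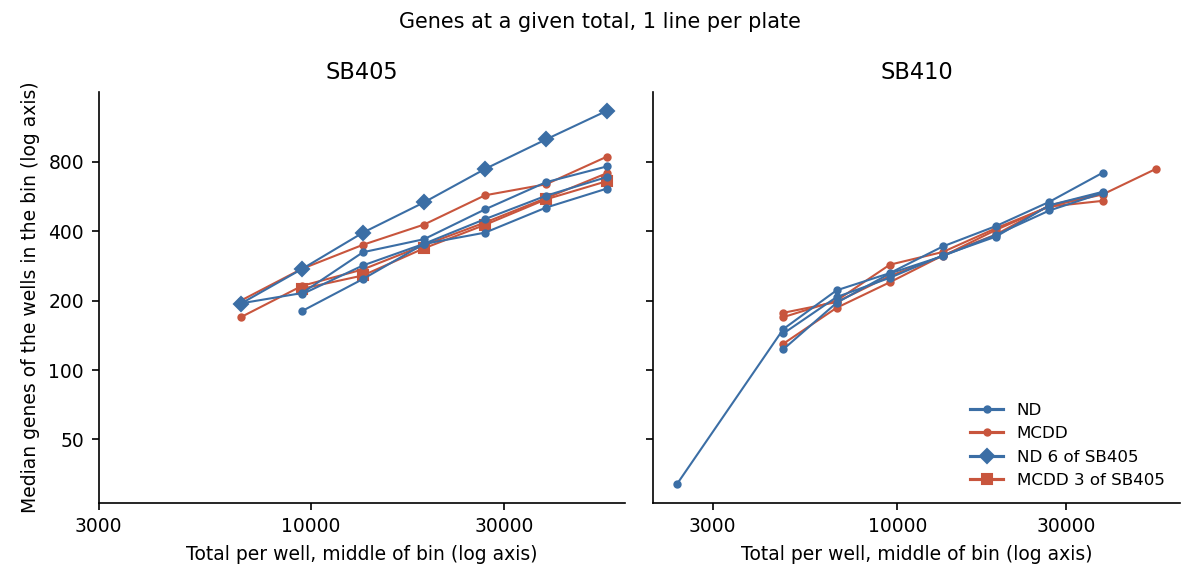
Median genes per T cell well against the total per well (both axes log), 1 line per plate, for bins of 0.5 on the log2 scale with at least 10 wells. In SB405 the line of ND 6 (diamonds) runs above the others from the bin at 13454.3 upward, and not in its lower bins. It has 592.5 genes at the middle total against 349 to 451 on the other 6 plates. In SB410 the plates of both diets run together.

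The steepness of this relation gave the smallest p among the readouts that describe a plate's shape. The slope of log2 genes on log2 total describes how genes rise with the total from well to well of a plate, not within 1 T cell. It was 0.88, 0.94, 0.81 and 0.94 on the ND plates of SB405 and 0.92, 0.75 and 0.72 on its MCDD plates. In SB410 it was 0.95, 0.80 and 0.97 on ND and 0.80, 0.87 and 0.74 on MCDD. The MCDD plates were lower than the ND mean of their batch in 5 of 6 cases, and the diets overlapped in both batches. The mean slope was 0.899 on ND and 0.800 on MCDD. The difference was -0.0999 ± 0.0473 (exact permutation p = 0.0529, adjusted p = 0.106 over 2 shape readouts), with -0.0967 in SB405 and -0.104 in SB410. The difference was thus of similar size in both batches. Leaving out MCDD 3 gave -0.13 with an adjusted p of 0.0333, and leaving out both plates gave -0.12 ± 0.04 with an adjusted p of 0.08. The slope takes in the wells of low total and few genes described below. Over wells with at least 100 genes the difference was smaller, -0.068, and it passed the threshold.

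The spread of genes among T cells of 1 plate, measured as the interquartile range of log2 genes, was 0.77 to 0.84 on ND 3, 4 and 5 and 0.78 and 0.82 on MCDD 4 and 5 of SB405. It was 1.31 on ND 6 and 1.53 on MCDD 3, the plates that stood apart. In SB410 it was 0.80 to 0.86 on ND and 0.79 to 0.88 on MCDD. Genes per well thus spread about equally on the plates of the 2 diets outside the pair. The difference between diets was 0.06 ± 0.14 (exact permutation p = 0.604) and -0.01 ± 0.02 without the pair.

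Shares of wells in the tails were given as percents of the 380 wells of a plate. Wells under 100 genes made up 5.00%, 5.79%, 2.89% and 3.68% of the ND plates of SB405 and 21.6%, 1.84% and 2.63% of its MCDD plates. Apart from MCDD 3, the MCDD plates lay below all 4 ND plates. In SB410 the shares were 6.84%, 4.74% and 7.11% on ND and 4.74%, 5.53% and 2.63% on MCDD, with the lowest on an MCDD plate. The difference was 1.45 ± 3.01 percentage points (exact permutation p = 0.919, adjusted p = 0.919). Without the pair of plates its sign turned, to -2.11 ± 0.82 points with an unadjusted exact permutation p of 0.035 and an adjusted p of 0.105. Among even columns alone, which leave out the low block of MCDD 3, it was -3.24 points with an adjusted p of 0.0429 (exact permutation). Even columns were chosen after the data were seen. In odd columns, wells under 100 genes numbered 8 to 10 on ND and 7 to 9 on MCDD plates of SB410. In SB405 they numbered 2 to 10 on ND and 75, 5 and 6 on MCDD 3, 4 and 5. The value thus depends on which columns are kept.

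Wells with at least 500 genes made up 17.9% to 55.0% of the ND plates and 20.8% to 27.4% of the MCDD plates in SB405, and 16.3% to 17.9% and 13.4% to 16.8% in SB410. Every MCDD plate lay below the ND mean of its batch. The difference of -6.96 ± 5.23 points (exact permutation p = 0.233, adjusted p = 0.699) was -2.53 ± 3.40 points without the pair of plates. Wells with at least 1000 genes were rare on 13 of the 14 plates, at 0.263% to 3.42%, and differed by -2.36 ± 2.68 points (exact permutation p = 0.649, adjusted p = 0.919). Without the pair of plates this was 0.21 ± 0.42 points. No gain of gene-rich T cells on MCDD was detected at this number of plates.

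The wells under 50 genes were of more than 1 kind. Some had a total no higher than the empty wells of their plate and others had a total above every empty well yet few genes. The limit of 50 genes and the count of the second kind were chosen after their values were seen, so they are a description with no test. Of 79 such wells on the ND plates, 78 had a total above every empty well of their plate. On the MCDD plates 24 of 102 did, and 73 of the 102 lay on MCDD 3, where their median total was 434. Each diet had 2660 wells in all. The bar was the highest total of only 4 empty wells per plate. In SB405 this bar was higher on MCDD (1751 to 2118) than on ND (1043 to 1373), so fewer MCDD wells could exceed it. In SB410 it was 429 to 1039 on MCDD and 415 to 1032 on ND.

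By plate, the wells with few genes and a total above the empty wells numbered 11, 18, 3 and 1 on ND 3, 4, 5 and 6 of SB405 and 2, 1 and 1 on MCDD 3, 4 and 5. In SB410 they numbered 18, 7 and 20 on ND 1, 2 and 6 and 6, 8 and 6 on MCDD 1, 2 and 6, and there were none on MCDD 1 of SB399. The diets overlapped in both batches, through ND 6 in SB405 and ND 2 in SB410. With a total of at least 3000 asked for as well, the counts were 8, 16, 3 and 0 on ND and 0, 1 and 1 on MCDD in SB405, and 4, 2 and 10 on ND and 1, 1 and 1 on MCDD in SB410. With this limit the diets overlapped in SB405, through ND 6, and did not overlap in SB410, where each diet had 3 plates. These counts were not tested either. Which genes these wells held was not analysed here.

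The same count was made on the dendritic cell and doublet plates of these nodes. On cDC plates it was 21 and 24 on ND against 1, 1 and 2 on MCDD in SB405, and 49, 33 and 23 on ND against 24 and 16 on MCDD in SB410. The cDC plates did not overlap in SB405 and overlapped in SB410, with 23 on an ND plate and 24 on an MCDD plate. On doublet plates it was 18 on ND against 2 on MCDD in SB405, and 24 and 71 on ND against 40 and 10 on MCDD in SB410. Higher counts on ND were thus not seen in T cells alone. Whether the diets differ by different amounts in the 3 sorts was not tested for this count.

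**Figure D4:**
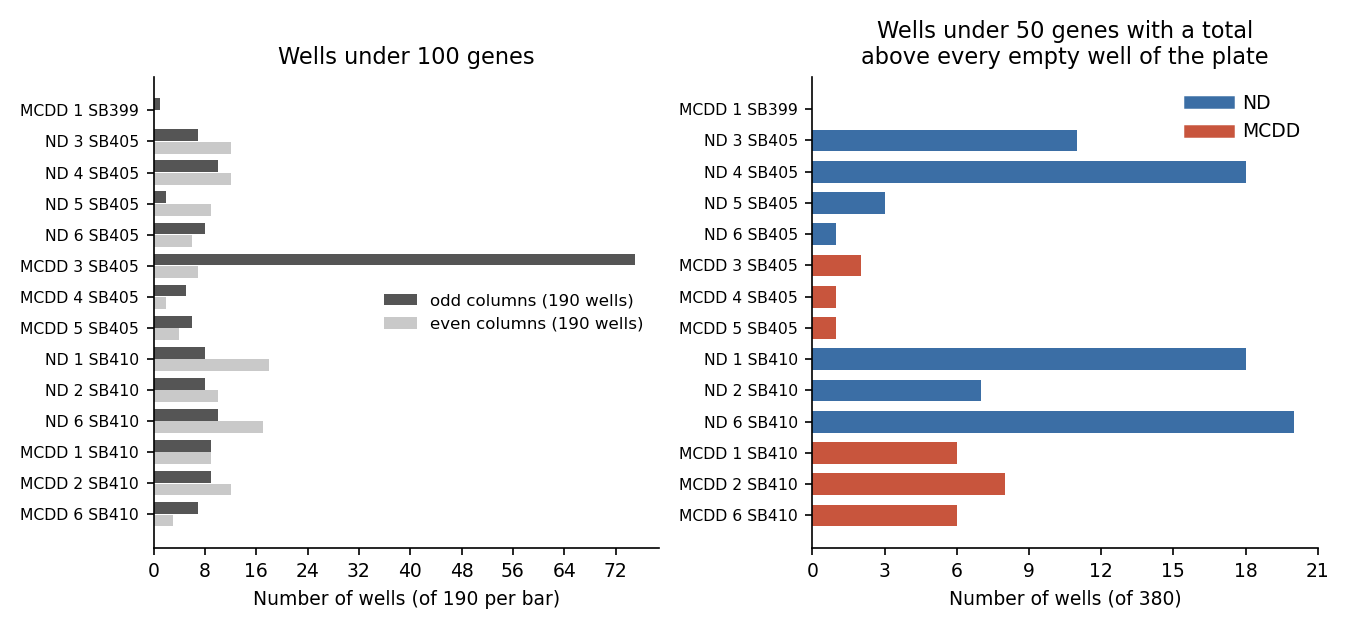
Number of T cell wells under 100 genes in odd and even columns (left, 190 wells per bar) and number of wells under 50 genes whose total exceeds every empty well of the plate (right, of 380 wells), for each of the 14 plates. On the left, MCDD 3 of SB405 has 75 such wells in odd columns and 7 in even columns; on the right, ND plates range from 1 to 20 and MCDD plates from 0 to 8.

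Empty wells gave the background of each plate. Their median was 5 to 34.5 genes and 307.5 to 1550.5 counts, and the median total of T cell wells was 10.0 to 50.9 times that of the empty wells of the same plate. Genes in empty wells differed between diets by -0.25 ± 0.47 on the log2 scale (exact permutation p = 0.559, adjusted p = 0.801), and their totals by 0.08 ± 0.33 (exact permutation p = 0.801, adjusted p = 0.801). With 4 empty wells a plate, these medians are coarse. Without the pair of plates the differences were 0.18 ± 0.34 in genes and 0.37 ± 0.29 in totals of empty wells.

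Some plate positions were low on several T cell plates. The well D18 held under 100 genes on 10 of the 14 plates, 6 ND and 4 MCDD, and no more than 250 genes on any of them. The next lowest position was under 100 genes on 5 plates, and 177 of the 380 positions were never under 100. The median of genes was higher in odd rows than in even rows on 12 of the 14 plates. Across wells of the same position, Spearman's rho of genes between pairs of plates ran from -0.09 to 0.26, with a median of 0.10 over 91 pairs. These pairs share their barcode layout, and the value is a description over 380 positions.

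The T cell wells were then set against the other sorts of the lymph nodes. The cDC sort was CD45+Lin-MHC-II+CD11c+ and gave 4180 wells on 11 plates. The doublet sort, which added TCRb+ to these markers, gave 3040 wells on 8 plates. Genes per well tended to spread less on T cell plates. The interquartile range of log2 genes was 0.71 to 1.53 on T cell plates, 1.26 to 3.19 on cDC plates and 0.92 to 5.09 on doublet plates. The widest cDC and doublet plates, ND 1 and ND 2 of SB410, had 27.9% and 39.7% of wells under 100 genes. Whether the spread lies in the cells or in their capture was not tested. The comparison was chosen after these values were seen, so its p-values are a description. T cell plates were lower than cDC plates by 0.79 ± 0.15 (exact permutation of sort labels within batch and diet, p = 3.33e-05, adjusted p = 6.67e-05, 14 against 11 plates) and lower than doublet plates by 0.90 ± 0.37 (exact permutation p = 0.00233, adjusted p = 0.00233, 14 against 8 plates). The doublet value depended on 1 plate: without ND 2 of SB410 the difference was -0.48, with an adjusted p of 0.005. In SB405 alone it was -0.30 with an adjusted p of 0.25, and T cells against cDC differed by -0.48 there with an adjusted p of 0.0467. Over wells with at least 100 genes the differences were -0.45 and -0.36, smaller than over all wells.

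**Figure D5:**
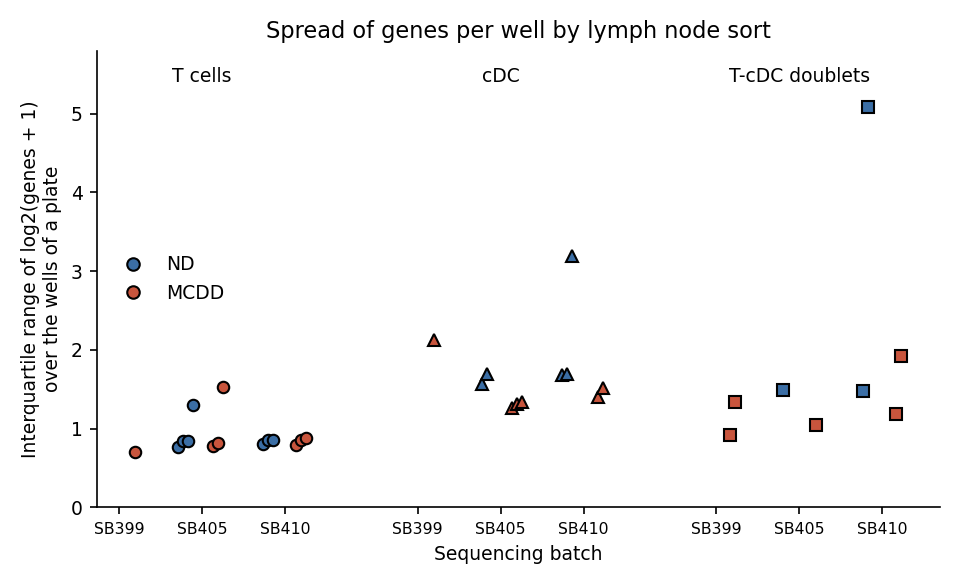
Interquartile range of log2(genes + 1) over the wells of a plate, 1 point per plate, for the 3 lymph node sorts by sequencing batch, coloured by diet. T cell plates lie between 0.71 and 1.53, cDC plates between 1.26 and 3.19 and doublet plates between 0.92 and 5.09; the T cell plates above 1 are ND 6 and MCDD 3 of SB405.

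Whether the diet difference in T cells was unlike that in the other sorts was tested at each of the 5 percentiles of genes, as 10 comparisons with adjustment over all of them. Only plates of SB405 and SB410 entered. The cDC had 2 ND and 3 MCDD plates in SB405, and 3 ND and 2 MCDD plates in SB410. The doublets had 1 plate of each diet in SB405 and 2 of each in SB410. None of the 10 comparisons passed over all these plates, and 3 had an unadjusted p below 0.05. At the 10th percentile, where T cells differed between diets by -0.84, cDC differed by 1.09, that is, higher on MCDD. The difference of these effects was -1.93 (permutation p = 0.0183, adjusted p = 0.0610). The cDC value takes in ND 1 of SB410, with 9 genes, where 84 of 106 wells under 100 genes lay in odd columns. The other cDC plates of SB410 had 60.9 and 70 genes on ND and 69 and 81.9 on MCDD. In SB405 the cDC plates had 76.6 and 105 genes on ND and 135 to 229.9 on MCDD. Against doublets the effects differed by -1.77 at the 25th percentile (permutation p = 0.0115, adjusted p = 0.0610) and by -0.61 at the median (permutation p = 0.0127, adjusted p = 0.0610). Without the pair of T cell plates that stood apart these 3 became -1.04 (permutation adjusted p = 0.298), -1.59 and -0.52 (both with a permutation adjusted p of 0.252). Over wells with at least 100 genes they were -0.07, -0.31 and -0.37, each with a permutation adjusted p of 0.891. Leaving out single plates moved these values as well. The cDC comparison at the 10th percentile passed without T cell plate MCDD 4 or MCDD 5 of SB405 or MCDD 6 of SB410, or without cDC plate ND 1, ND 2 or ND 6 of SB410 (permutation adjusted p from 0.0327 to 0.0498), and was -1.05 without T cell plate MCDD 3 (permutation adjusted p = 0.287). At the 25th percentile it passed without cDC plate ND 2 of SB410 (permutation adjusted p = 0.0391). The doublet comparison at the 25th percentile passed without T cell plate ND 3, MCDD 4 or MCDD 5 of SB405 or ND 2 or MCDD 6 of SB410, and was -0.76 without doublet plate ND 2 of SB410 (permutation adjusted p = 0.145). At the median it passed without T cell plate ND 3 of SB405 or ND 2 or MCDD 6 of SB410 (permutation adjusted p from 0.0255 to 0.0478). At the median the T cell and cDC effects differed by -0.06 (permutation p = 0.747, adjusted p = 0.933), and by 0.04 without the pair. At the 75th and 90th percentiles they differed by 0.0059 and 0.0044, both with a permutation adjusted p of 0.986, and by 0.12 and 0.15 without the pair.

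The MCDD plate of SB399 entered no test, since its batch held no ND T cells. It had the lowest median total of the 14 plates, 11337, and yet a median of 406.5 genes, above every plate of SB410 and above all MCDD plates of SB405. At its own median total, 11337, its wells held 408 genes. A single well of its 380 (0.263%, 95% Wilson interval 0.0465% to 1.48%) was under 100 genes, the lowest share of all T cell plates, and 30.0% held at least 500. Its slope was 0.72 and its interquartile range 0.71, both among the lowest. Diet and batch cannot be told apart for this plate.

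Over all 20 readouts compared between diets, 0 passed at an adjusted p of 0.05 by the exact permutation test and 0 had an unadjusted p below 0.05, although 17 of the 20 were lower on MCDD. The number lower was 13 of 20 without the pair of plates that stood apart and 13 of 20 in SB410 alone. The readouts come from the same plates and are not independent. Lower does not mean the same for each of them, since a lower share under 100 genes means fewer wells with little signal. Spread and empty wells are counted as well, so the number gives no common direction. A p that misses the threshold does not show that T cells on the 2 diets are alike. In SB410, where no plate stood apart, the genes at the 5 percentiles differed by -0.05 to 0.05 on the log2 scale.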

How the data were processed

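Single T cells were sorted into 384-well capture plates, their mRNA was barcoded and pooled, and each pool was amplified by T7 transcription, per the labels' protocols. Per the submitters' processing notes, bcl2fastq 2.15.0.4 and the build mm10 were used. For the aligner, the annotation and the counting, the sources used here give nothing. The deposited table holds, for each well, whole-number values of a total count and of genes detected. The file headers call the former a total and no more, and it may be of reads or of molecules, with or without spike-in RNA. Genes are not corrected for depth. Of 120 plates in the labels, 118 were analysed.

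Percentiles over the 380 wells with 1 cell were taken per plate, on a log2 scale (pseudocount 1 for empty wells and for the spread). Diets were compared by exact permutation within sequencing batch, with batches weighted by how many plates they held and with Benjamini-Hochberg adjustment within each kind of readout. Differences between sorts in the diet effect used 100000 permutations. Every readout was to be named, and genes only if a gene-level table was given. The T cell wells and all readouts were chosen with earlier results of these data known. A share of 380 wells has a 95% Wilson interval of at most 5.00 percentage points either side, and a count of 0 allows up to 0.789%, both for counting error only. Alternatives were other stratification, thresholds, windows and a linear fit, a replicate block, and leaving out plates. No label ties a plate number to a shared animal or day, so no pairing was assumed. Same-numbered plates of the 2 diets correlated at -0.05 to 0.09 over well positions (6 pairs), which does not test for a shared animal. Tests ran in numpy 2.4.6 under Python 3.11.15, intervals came from scipy 1.17.1, tables from pandas 2.3.3 and figures from matplotlib 3.10.9.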

Additional observations from a re-analysis of the deposited data

Results flagged for a closer look

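In 40 groups of 7 plates, 10 values lay far from the other plates of their diet, and all 10 belong to 2 plates of SB405. Chance would mark about 1 in 20 groups if the plates of a diet were alike, but here they come from 2 or 3 sequencing batches of different depth. On MCDD 3 they were the 10th percentile of genes (7, against 145.3 to 254.9 on the other MCDD plates) and of the total (449.1, against 5753.5 to 9618.4). They also included its interquartile range of log2 genes (1.53, against 0.71 to 0.88) and its share of wells under 100 genes (21.6%, against 0.263% to 5.53%). On ND 6 they were the 75th percentile of genes (854, against 427.5 to 572 on the other ND plates) and the 90th (1251.3, against 557.3 to 748.2). They also included its genes at the middle total of its batch (592.5, against 322.5 to 405, read at a lower total in SB410) and its interquartile range (1.31, against 0.77 to 0.86). The last were its share of wells with at least 1000 genes (18.4%, against 0.789% to 2.89%) and the genes of its empty wells (34.5, against 7.5 to 13). The readouts of 1 plate share their wells, so these are not independent.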

How the results depend on the processing

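Of 720 alternatives over 32 results, 628 kept direction and side of the threshold, 72 turned the direction of a value, 19 brought a value past the threshold and 1 took it away. The cause was not tested. Values are MCDD minus ND (log2, or percentage points for shares). The slope passed without strata (-0.11), over wells of at least 100 genes (-0.068) and in even columns (-0.15). In SB410 alone these turned: 10th percentile of genes (0.049) and total (0.064), genes at the middle (0.0076) and 75th percentile total (0.043), shares under 100 (-1.93) and from 1000 genes (0.088). In SB405 alone the total of empty wells turned (-0.014), and T cells against doublets in spread no longer passed (-0.30). The replicate block left out ND 6 of SB405, which had no MCDD plate of its number. No label says that the numbers pair the plates, and the block changed no call. It turned genes at the 3 given totals (0.027, 0.020, 0.054), the same values as without ND 6 of SB405 alone. The linear fit turned the first of these (0.061) and the second (0.0014), and the same totals in both batches the first (0.034). Without both plates that stood apart these turned: 10th percentile of genes (0.043), the given totals (0.063, 0.050, 0.10), spread (-0.0057), shares under 100 (-2.11) and from 1000 genes (0.21), and genes of empty wells (0.18). Even columns, chosen after seeing the data like the omission of both plates, turned the 10th percentile of genes (0.20) and total (0.011), spread (-0.085) and the share under 100 (-3.24), which then passed. Wells of at least 100 genes turned spread (-0.034). The T cell minus cDC effect turned at the 75th and 90th percentile without strata (-0.25, -0.25), at the 25th and 50th over wells of at least 100 genes (0.017, 0.078), and at the 50th without both plates (0.036) and in even columns (0.0078). Leaving out 1 plate gave -1.20 to 0.037 for the 10th percentile of genes; -0.098 to 0.027, -0.12 to 0.020 and -0.11 to 0.054 for genes at the given totals; -0.62 to 0.018 and -0.15 to 0.34 for genes and total of empty wells; -0.068 to 0.12 for spread; -2.02 to 2.92 for the share under 100; and -0.132 to -0.0801 for the slope. For the T cell minus cDC effect it gave -2.28 to -1.05, -0.74 to -0.38, -0.13 to 0.017, -0.067 to 0.11 and -0.067 to 0.13 from the 10th to the 90th percentile. For T cells minus doublets it gave -2.55 to -0.76 at the 25th and -0.69 to -0.51 at the 50th. The 7 and 6 plates per diet limit all of these.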

Other observations

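The dendritic cell plates of SB405, sorted from the same nodes, had an interquartile range of log2 genes of 1.26 to 1.69 and a 90th percentile of 858.1 to 1144.4 genes. The doublet plates of SB405 had 1.49 and 1146.3 on ND 3, and 1.04 and 1127.3 on MCDD 3. The T cell plate ND 6 of that batch had 1.31 and 1251.3, the latter above all cDC and doublet plates of the batch. The other 6 T cell plates had 0.77 to 1.53 and 582.6 to 748.2. These values were set side by side after they were seen, with no test. Whether ND 6 carries the wrong label or holds cells besides T cells could not be checked without counts of single genes, and it raises the ND mean of SB405.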
